A study of Mus musculus with 6 samples.

Results

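Zinc and copper enter and leave cells through a small set of transporter families. The members described here were every gene of the deposited table whose symbol is Slc30a or Slc39a followed by a number, with the metallothioneins Mt1, Mt2 and Mt3, their regulator Mtf1, the copper importers Slc31a1 and Slc31a2, and the copper pumps Atp7a and Atp7b. The rule found 32 of the 21853 genes in the table: 10 Slc30a genes, 14 Slc39a genes, 3 metallothioneins, Mtf1, 2 copper importers and 2 copper pumps. Of these, 22 averaged 1 FPKM or more across all libraries and were tested, and 10 lay under that minimum. FPKM are fragments per kilobase of transcript scaled to library depth, so levels can be compared between genes.

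The cells were mouse embryonic fibroblasts of the C57BL/6J strain, labelled with an age of 12 days. All 6 samples carried the knockout of xCT, the cystine importer subunit encoded by Slc7a11, and no cells with intact xCT were among them. The 3 RCE libraries came from cells given red clover extract and the 3 control libraries from cells given water. Dose and exposure time are not given in the sources used here. Nothing in the labels says that replicates were separate cultures, so a p-value here reflects only how much these 6 libraries vary, and that variation may be technical.

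Most ZnT proteins (Slc30a) move zinc out of the cytosol, either across the plasma membrane or into vesicles, the Golgi and other organelles. ZIP proteins (Slc39a) move it into the cytosol. Metallothioneins are small proteins rich in cysteine that bind zinc and copper. The zinc-sensing transcription factor MTF1 switches on Mt1, Mt2 and Slc30a1 through short metal response elements in their promoters, so the transcripts of these 3 genes are commonly read together as a zinc-responsive set. Among the ZIP proteins, ZIP8 (Slc39a8) and ZIP14 (Slc39a14) also carry iron and manganese.

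The promoters of these 3 zinc-responsive genes are shown because their transcripts all had lower means with the extract. The windows are from RefSeq on GRCm38.p6, the assembly that mm10 names, and run from 250 bases before the annotated start to 50 bases from it, on the plus strand. They are chr8:94178839-94179138 for Mt1, chr8:94172368-94172667 for Mt2 and chr1:191906531-191906830 for Slc30a1. Mt2 as annotated in GENCODE starts at 94172664, near the end of its window, so the RefSeq start used here lies before that start. Match counts and positions hold for the RefSeq starts. Capitals mark each match to the core of the metal response element, searched as TGCACNC or TGCGCNC on both strands, where N is any base.
Mt1: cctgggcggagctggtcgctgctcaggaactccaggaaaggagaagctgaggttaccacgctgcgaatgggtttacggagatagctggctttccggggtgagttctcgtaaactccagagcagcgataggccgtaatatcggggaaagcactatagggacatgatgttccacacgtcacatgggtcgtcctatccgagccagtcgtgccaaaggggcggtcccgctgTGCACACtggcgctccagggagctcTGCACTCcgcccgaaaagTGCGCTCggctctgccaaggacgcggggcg
Mt2: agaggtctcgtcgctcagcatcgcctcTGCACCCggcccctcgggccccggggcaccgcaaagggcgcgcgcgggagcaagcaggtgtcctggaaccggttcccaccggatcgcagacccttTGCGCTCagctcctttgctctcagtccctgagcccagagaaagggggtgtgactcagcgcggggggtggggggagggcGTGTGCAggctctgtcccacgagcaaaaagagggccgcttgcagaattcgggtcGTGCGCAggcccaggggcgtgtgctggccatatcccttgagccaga
Slc30a1: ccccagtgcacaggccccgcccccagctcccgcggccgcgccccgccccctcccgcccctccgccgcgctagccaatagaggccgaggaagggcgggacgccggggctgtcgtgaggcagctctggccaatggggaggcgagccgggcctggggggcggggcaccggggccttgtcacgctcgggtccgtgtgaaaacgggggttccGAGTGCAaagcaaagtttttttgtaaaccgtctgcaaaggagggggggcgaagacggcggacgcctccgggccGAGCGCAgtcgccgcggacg

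The Mt1 window held 3 matches, the Mt2 window 4 and the Slc30a1 window 2, and within each window no match overlapped another. Among 32851 promoter windows of the same length, 25.7% held at least 1 match, 7.11% at least as many as Slc30a1, 1.97% at least as many as Mt1 and 0.517% at least as many as Mt2. RefSeq windows were found for 28 of the 32 members, some with more than 1 start, and 18 of the 33 member windows held a match. Among the other members, Slc30a4 and Slc30a10 held 3 matches each, as many as Mt1. Atp7a and Slc30a2 held 2 each, as many as Slc30a1. The 2 windows of Slc39a10, a zinc importer that MTF1 represses in mouse cells, and the window of Mtf1 itself held 0 matches. The Slc39a10 windows (chr1:46853569-46853868 and chr1:46925727-46926026) lie inside and beyond the gene as annotated in GENCODE (46807544 to 46892852, minus strand). The start of Slc39a10 in that annotation was therefore not searched. The Mtf1 window likewise begins at 124802299, after the GENCODE start of 124802104. A match is a stretch of letters and was not tested as a binding site.

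**Figure D1:**
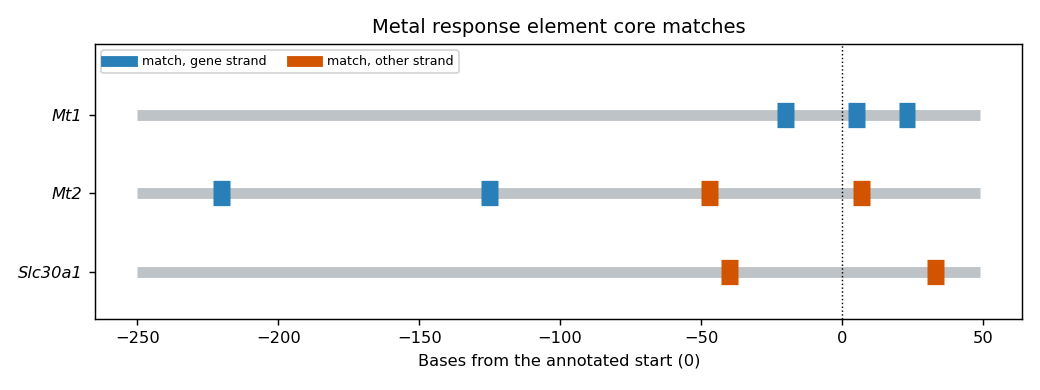
Positions of matches to the metal response element core in the promoter windows of Mt1, Mt2 and Slc30a1, in bases from the annotated start, which is counted as 0. Boxes mark matches, coloured by strand: Mt1 has 3 on the gene's strand, Mt2 has 2 on each strand, and Slc30a1 has 2 on the other strand.

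The libraries held 45700000 to 59000000 fragments by the steps between low values. Slc7a11 was at 0.007 to 0.017 FPKM in RCE libraries and at 0.013 to 0.037 FPKM in control libraries. All 10 fibroblast markers reached 1 FPKM, with a summed level of 5521 to 5896 FPKM in RCE libraries and 6073 to 6477 FPKM in control libraries. Of the lists for other cell types, the sums of the skeletal muscle, epithelial and neural markers did not overlap between groups. The 4 skeletal muscle markers summed to 49.5 to 57.8 FPKM in RCE and 37.7 to 44.3 FPKM in control. Almost all of it was desmin, with Myod1 and Myf5 at 0 throughout. The 5 epithelial markers summed to 4.50 to 5.77 FPKM in RCE and 6.75 to 7.33 FPKM in control, most of it Krt19 and Krt18. Krt19 was at 2.83 to 3.39 FPKM in RCE and 3.86 to 4.93 FPKM in control. Krt18 and Krt8 overlapped between groups, and Epcam and Cdh1 stayed under 0.1 FPKM. The 4 neural markers summed to 11.8 to 12.7 FPKM in RCE and 10.1 to 11.0 FPKM in control, almost all of it Tubb3. Map2 was at 0.239 to 0.328 FPKM in RCE and 0.327 to 0.354 FPKM in control, and Sox2 and Sox10 stayed under 0.1 FPKM. The sums of the endothelial, leukocyte and erythroid lists overlapped. The part of other cells in the values below was not tested, and fewer cells of a type cannot be told apart from less RNA per cell.

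Slc30a1, the zinc exporter of the plasma membrane, was the only one of the 22 tested members past an adjusted p of 0.05 in limma, and it was lower with the extract. No member was higher by that test (2 higher and 2 lower at an unadjusted p under 0.05, where 28.5% of all tested genes were higher and 9.48% lower). Over all 10870 tested genes, 6.77% were called lower and 17.6% higher, so the members' count of 1 lower was near the background share and their count of 0 higher was below it. Changes are given as RCE minus control on the log2(FPKM + 1) scale, which understates the change of low genes. The median change of the 22 members was -0.02 and that of all tested genes 0.08. With median-of-ratios scaling, which moved the median of all genes to 0.00, that of the members was -0.09. In that fit 8.4% of all tested genes were called higher and 9.95% lower, against 0 and 2 of the 22 members. The share called higher thus depended on the scaling. The spread was narrow outside the metallothioneins: the other 20 changes lay between -0.24 and 0.14.

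The labels do not say that the replicate numbers pair the libraries. The check described with the processing set replicate 1 apart in both groups but did not match replicates 2 and 3 by number. Blocked p-values and counts of same-numbered pairs rest on that numbering. With replicate number as a block 9 members were lower and 4 higher. Against this stood 15.9% of all tested genes called lower and 46.6% called higher in the same fit. The block added 12 members to the call of Slc30a1, and they are given below with that p, since the unblocked fit of all 6 libraries did not call them. Of these 12, 8 were also called without a block when both replicate 1 libraries were left out: Mt1, Mt2, Slc30a9, Slc39a3, Slc39a6, Slc39a9, Slc39a11 and Slc39a13 (adjusted p of 0.00282 to 0.0417). That fit was added after seeing the data, uses part of the same libraries and is no separate support. It called 40.1% of all tested genes higher and 13.6% lower, against 13.6% of members higher and 27.3% lower. RCE was lower in all 3 pairs of same-numbered libraries for 10 members and higher in all 3 for 8, where the shares over all tested genes were 20.6% lower and 56.5% higher.

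**Figure D2:**
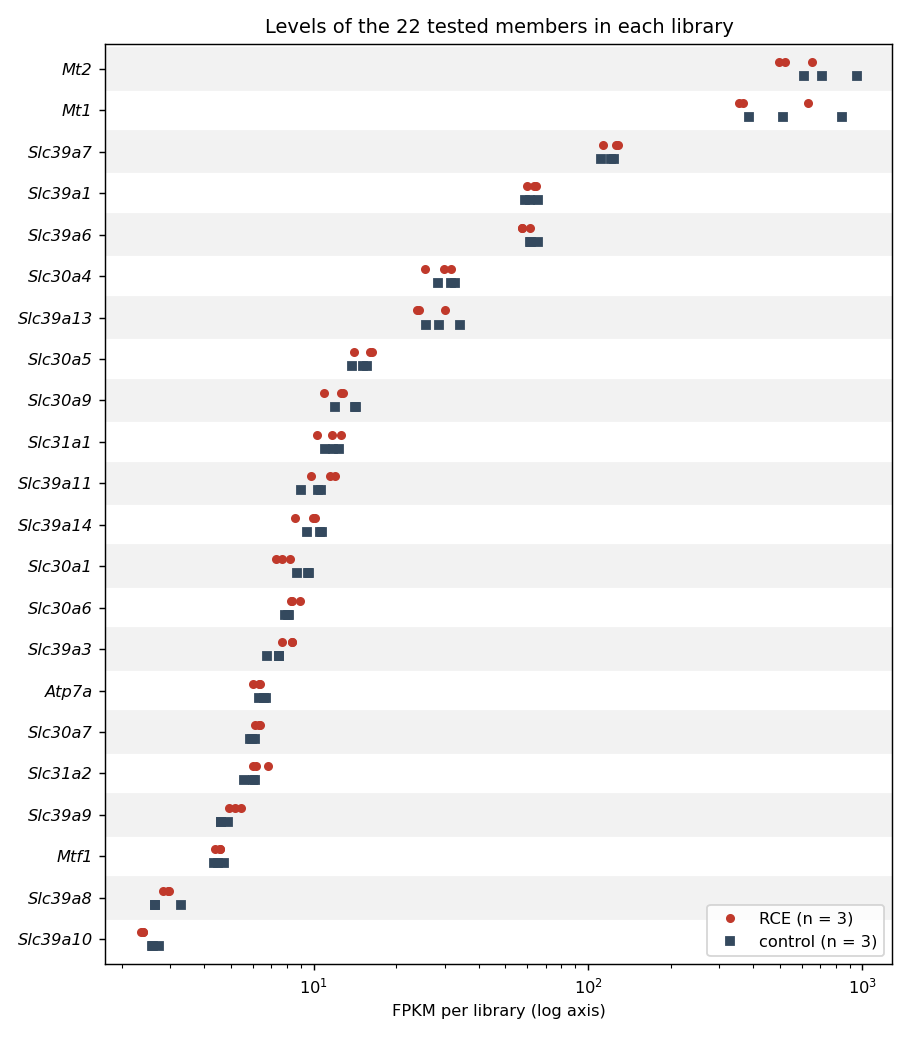
FPKM of the 22 tested members in each library, on a log axis, with RCE as circles above control as squares and genes ordered by mean level. Levels run from about 2.51 FPKM (Slc39a10) to 658 FPKM (Mt2), and for most genes the points of the groups overlap.

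Slc30a1 (ENSMUSG00000037434, chromosome 1, 191906767 to 191913247 on mm10), which encodes ZnT1, exports zinc from the cell. It was at 7.30, 7.67 and 8.18 FPKM in RCE replicates 1, 2 and 3, and at 8.68, 9.65 and 9.57 FPKM in control replicates 1, 2 and 3. The 3 RCE values all lay below the 3 control values. The means were 7.72 ± 0.445 FPKM with the extract and 9.30 ± 0.536 FPKM in control (SD, n = 3), a change of -0.24 (SE 0.06, 95% interval -0.38 to -0.10, adjusted p = 0.0320). With the replicate block the adjusted p was 4.55e-04, and with both replicate 1 libraries left out it was 0.00172. The call ended when any single library other than control replicate 1 was left out: with RCE replicate 1, 2 or 3 omitted the adjusted p was 0.0598, 0.112 and 0.0501, and with control replicate 2 or 3 omitted it was 0.110 and 0.111. Its change in these fits stayed between -0.28 and -0.21. Exons of 1700034H15Rik overlap the gene on the opposite strand, as exons of other genes do for Mtf1, Slc30a4 and Slc30a7, and since it is not known whether counting used strand, their reads cannot be told apart.

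The metallothioneins were the most abundant members, and both had lower means with the extract. Mt1 (ENSMUSG00000031765, chromosome 8, 94179082 to 94180327) was at 631, 355 and 366 FPKM in RCE replicates 1, 2 and 3, and at 845, 513 and 387 FPKM in control replicates 1, 2 and 3. Replicate 1 was the highest library in both groups, and the groups overlapped. The means were 451 ± 156 FPKM with the extract and 582 ± 237 FPKM in control (SD, n = 3, change -0.34, SE 0.34, adjusted p = 0.508). Within each pair of same-numbered libraries the RCE value was the lower, and with the block the change passed the threshold (adjusted p = 0.00406).

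Mt2 (ENSMUSG00000031762, chromosome 8, 94172664 to 94173568), a neighbour of Mt1 on the same strand, showed a like order of libraries. It was at 655, 496 and 520 FPKM in RCE replicates 1, 2 and 3, and at 952, 715 and 610 FPKM in control replicates 1, 2 and 3. RCE replicate 1 lay above control replicate 3, and the other RCE libraries lay below all control libraries. The means were 557 ± 85.6 FPKM in RCE libraries and 759 ± 175 FPKM in control libraries (SD, n = 3, change -0.43, SE 0.18, 95% interval -0.87 to 0.01, adjusted p = 0.138). RCE was lower in 3 of 3 pairs, and the adjusted p with the block was 4.68e-04. Leaving out single libraries moved the change of Mt1 between -0.61 and -0.04 and that of Mt2 between -0.58 and -0.26, with no call in any of these fits. The size of the Mt1 change thus varied with the library left out: it was smallest without control replicate 1.

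The longest stretch shared by annotated Mt1 and Mt2 transcripts was 20 bases, so a read longer than that cannot match both exactly. An exon of Gm45774 overlaps Mt2 on the opposite strand. Summed over both genes the level was 1286, 851 and 886 FPKM in RCE replicates 1, 2 and 3, and 1798, 1228 and 998 FPKM in control replicates 1, 2 and 3, which was 0.252 to 0.389% of all FPKM in RCE libraries and 0.295 to 0.545% in control libraries. Mt3, known from brain as a growth inhibitory factor, lay at 0.016 to 0.021 FPKM in RCE libraries and at 0.017 to 0.095 FPKM in control libraries.

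Mtf1, which encodes the zinc-sensing regulator of the metallothionein genes, had near-equal means in both groups. It was at 4.56, 4.55 and 4.36 FPKM in RCE replicates 1, 2 and 3, and at 4.72, 4.49 and 4.33 FPKM in control replicates 1, 2 and 3. The values overlapped, and the interval of the change reached from -0.11 to 0.10 (change -0.01, adjusted p = 0.941).

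**Figure D3:**
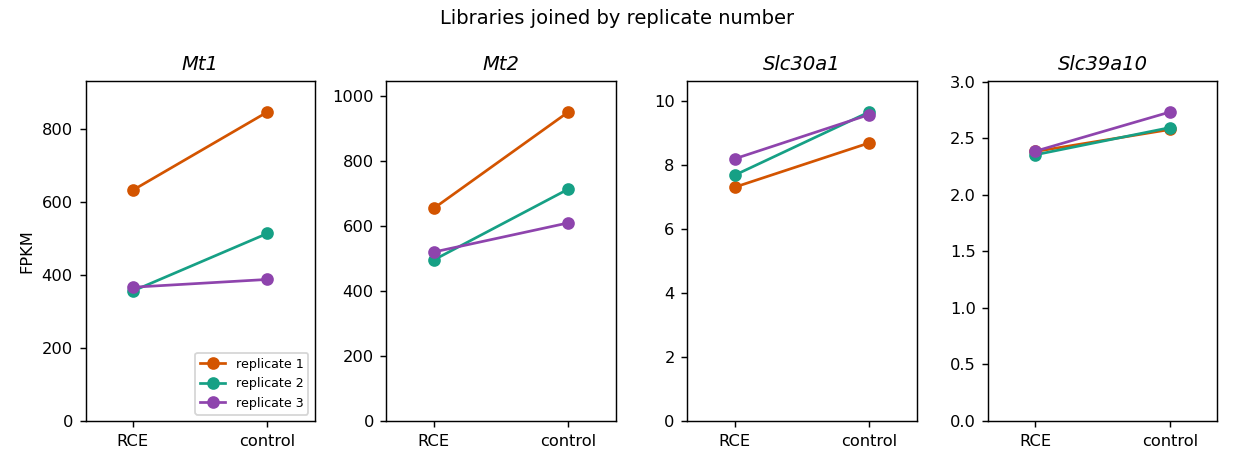
FPKM of Mt1, Mt2, Slc30a1 and Slc39a10 in RCE and control libraries, with libraries of the same replicate number joined by a line. The RCE value is the lower in all 3 pairs of each gene, and replicate 1 lies above the others for the metallothioneins in both groups.

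Besides Slc30a1, 5 ZnT genes were tested. Slc30a4, which loads zinc into vesicles, had the highest level of the ZnT genes, at 25.5, 29.9 and 31.6 FPKM in RCE replicates 1, 2 and 3, and at 28.4, 32.6 and 31.8 FPKM in control replicates 1, 2 and 3. The groups overlapped (change -0.09, adjusted p = 0.515, and 0.0350 with the block). The change ran from -0.15 without RCE replicate 3 to -0.0065 without RCE replicate 1. Slc30a9, found in mitochondria and the nucleus, was at 10.9, 12.6 and 12.8 FPKM in RCE replicates 1, 2 and 3 and at 11.9, 14.3 and 14.2 FPKM in control replicates 1, 2 and 3, lower with the extract in each pair (change -0.14, adjusted p = 0.306, and 0.00313 with the block). Its change was -0.22 without control replicate 1 and -0.07 without RCE replicate 1.

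The ZnT proteins of the early secretory pathway, which supply zinc to enzymes made there, lay on the other side of 0. Slc30a5 and Slc30a6, whose products work as a pair, changed by 0.05 (adjusted p = 0.656) and by 0.08 (adjusted p = 0.250), and Slc30a7 by 0.06 (adjusted p = 0.317). None of these 3 passed with the block (adjusted p = 0.141, 0.0673 and 0.138), and with median-of-ratios scaling the changes of Slc30a5, Slc30a6 and Slc30a7 were -0.031, 0.0005 and -0.015. Slc30a6 was at 8.28, 8.94 and 8.33 FPKM in RCE libraries and at 7.88, 8.05 and 8.10 FPKM in control libraries, without overlap. Taking all tested members, RCE lay wholly above control for 3 (Slc30a6, Slc39a3 and Slc39a9) and wholly below it for 3 (Slc30a1, Slc39a6 and Slc39a10), where 31.2% of all tested genes lay above and 10.9% below.

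Of the ZIP genes, 10 of 14 were tested and 0 were called in the unblocked limma fit of all 6 libraries (at an unadjusted p under 0.05, Slc39a3 and Slc39a9 were higher and Slc39a10 lower). The most abundant was Slc39a7 (ENSMUSG00000024327, chromosome 17, 34028269 to 34031682), which releases zinc from the endoplasmic reticulum and Golgi. It was at 114, 126 and 129 FPKM in RCE replicates 1, 2 and 3, and at 112, 124 and 121 FPKM in control replicates 1, 2 and 3. The groups overlapped and the change was 0.05 (95% interval -0.12 to 0.21, adjusted p = 0.657), or -0.04 with median-of-ratios scaling. An exon of Gm20427 overlaps it on the same strand, so shared reads could be split.

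The plasma membrane importers Slc39a1 and Slc39a6 followed in level. Slc39a1 was at 60.1, 63.3 and 64.5 FPKM in RCE replicates 1, 2 and 3, and at 58.8, 65.7 and 61.7 FPKM in control replicates 1, 2 and 3 (change 0.01, adjusted p = 0.895, and -0.07 with median-of-ratios scaling). Slc39a6 was at 61.2, 57.5 and 57.6 FPKM in RCE replicates 1, 2 and 3, and at 65.6, 62.0 and 61.5 FPKM in control replicates 1, 2 and 3. Its groups did not overlap, by a small margin (change -0.10, adjusted p = 0.201, and 0.00712 with the block). Slc39a10, whose product forms a complex with that of Slc39a6, was the lowest of the tested members. It was at 2.38, 2.36 and 2.39 FPKM in RCE replicates 1, 2 and 3, and at 2.58, 2.60 and 2.73 FPKM in control replicates 1, 2 and 3. It lay below control in all RCE libraries (change -0.11, SE 0.04, adjusted p = 0.0850), and was called lower with the block (adjusted p = 0.0366) and with median-of-ratios scaling (change -0.17, adjusted p = 0.0264).

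Slc39a3, another plasma membrane importer, had the most positive change of the tested members and was not called in the unblocked fit. It was at 7.65, 8.34 and 8.36 FPKM in RCE replicates 1, 2 and 3, and at 6.79, 7.50 and 7.49 FPKM in control replicates 1, 2 and 3. All RCE values lay above all control values (change 0.14, SE 0.06, adjusted p = 0.119, and 0.00373 with the block). Slc39a9 and Slc39a11, importers of the Golgi region, changed by 0.12 (adjusted p = 0.122, against 0.0145 in the blocked fit) and 0.13 (adjusted p = 0.345, against 0.00669 in the blocked fit). With median-of-ratios scaling the changes were 0.065 for Slc39a3 (adjusted p = 0.426), 0.046 for Slc39a9 (0.532) and 0.051 for Slc39a11 (0.727). Leaving out RCE replicate 1 gave Slc39a11 a change of 0.21, and leaving out control replicate 1 gave 0.062. Slc39a13, a transporter of the secretory pathway whose loss disturbs connective tissue, was at 30.0, 23.9 and 24.3 FPKM in RCE replicates 1, 2 and 3, and at 34.2, 28.5 and 25.7 FPKM in control replicates 1, 2 and 3. Replicate 1 was highest in both groups, and RCE was lower in each pair (change -0.17, adjusted p = 0.380, and 0.00315 with the block). The change was -0.06 without control replicate 1 and -0.27 without RCE replicate 1. Annotated exons of Psmc3 overlap Slc39a13 and those of Erh overlap Slc39a9, on the opposite strand in both cases.

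Neither of the ZIP genes whose products also carry iron passed the threshold in the unblocked fit. Slc39a8 (ENSMUSG00000053897, chromosome 3, 135825279 to 135888572) was at 2.97, 2.95 and 2.84 FPKM in RCE replicates 1, 2 and 3, and at 3.28, 2.65 and 2.64 FPKM in control replicates 1, 2 and 3. The RCE values lay within the range of the control values (change 0.03, 95% interval -0.14 to 0.20, adjusted p = 0.821, and 0.655 with the block). Its change was -0.04 with median-of-ratios scaling and -0.01 without control replicate 2 or control replicate 3.

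Slc39a14 (ENSMUSG00000022094, chromosome 14, 70303469 to 70351425) was at 8.57, 10.1 and 9.94 FPKM in RCE replicates 1, 2 and 3, and at 9.46, 10.5 and 10.8 FPKM in control replicates 1, 2 and 3. Replicate 1 was lowest in both groups and the groups overlapped, with means of 9.54 ± 0.844 FPKM in RCE libraries and 10.3 ± 0.693 FPKM in control libraries (SD, n = 3). RCE was lower in each pair (change -0.10, 95% interval -0.28 to 0.09, adjusted p = 0.409), and the block gave an adjusted p of 0.0239. The change was -0.03 without RCE replicate 1 and -0.15 without control replicate 1. Beside these importers, the iron exporter Slc40a1 was at 4.01, 5.87 and 6.11 FPKM in RCE replicates 1, 2 and 3 and at 1.76, 2.46 and 2.45 FPKM in control replicates 1, 2 and 3.

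**Figure D4:**
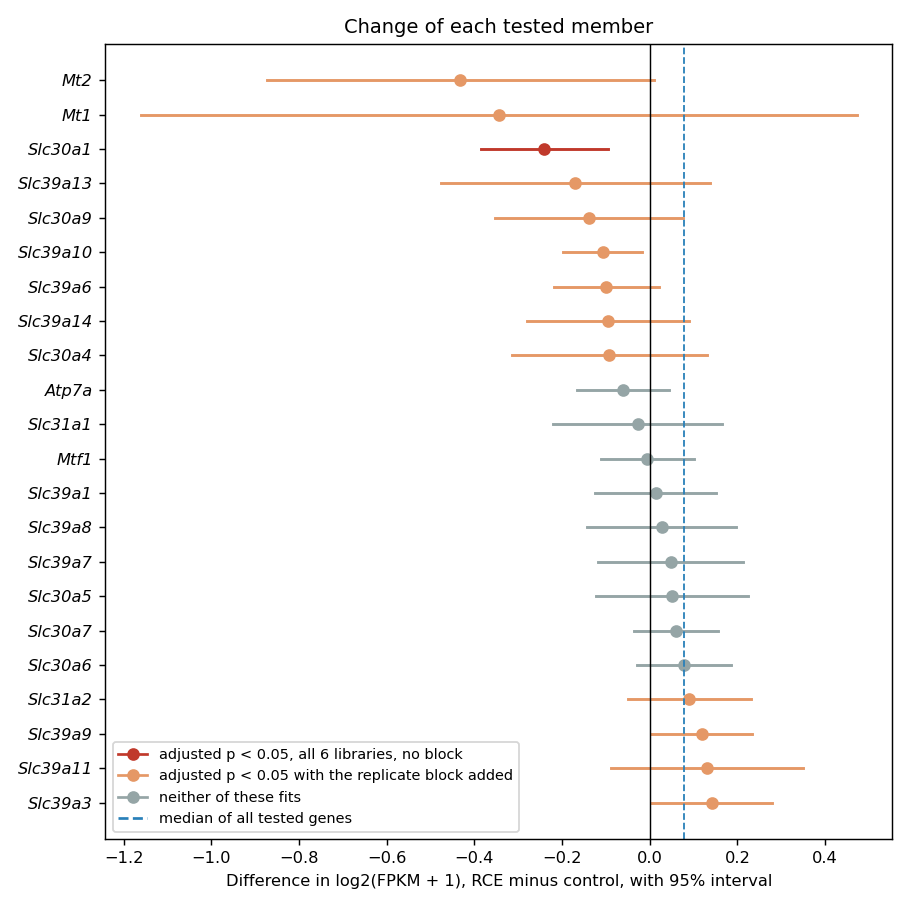
Difference in log2(FPKM + 1), RCE minus control, of the 22 tested members with 95% intervals from limma, and the median of all tested genes as a dashed line. In these fits Slc30a1 alone passed an adjusted p of 0.05 without the block, 12 more passed it once the replicate block was added, and the interval of Mt1 is the widest.

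None of the 3 copper transporters tested in the unblocked fit passed the threshold there, and Atp7b, too low for that fit, is given below. The high-affinity importer Slc31a1 (CTR1) was at 10.3, 11.6 and 12.6 FPKM in RCE replicates 1, 2 and 3, and at 11.0, 12.4 and 11.8 FPKM in control replicates 1, 2 and 3 (change -0.03, 95% interval -0.22 to 0.17, adjusted p = 0.840). Slc31a2 (CTR2), which acts in endosomes and lysosomes, was at 6.03, 6.19 and 6.83 FPKM in RCE replicates 1, 2 and 3, and at 5.57, 6.02 and 6.10 FPKM in control replicates 1, 2 and 3. It was higher with the extract in each pair (change 0.09, adjusted p = 0.307, and 0.0488 with the block). The change was 0.016 with median-of-ratios scaling (adjusted p = 0.877), 0.044 without RCE replicate 3 and 0.056 without control replicate 1. The copper pump Atp7a, which feeds copper to secreted enzymes and exports it, was at 6.32, 6.39 and 6.00 FPKM in RCE replicates 1, 2 and 3, and at 6.33, 6.60 and 6.71 FPKM in control replicates 1, 2 and 3 (change -0.06, adjusted p = 0.356, and 0.182 with the block).

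The other 10 members, those under a mean of 1 FPKM, lay at 0 to 0.131 FPKM in every library. They were Atp7b, Mt3, 4 ZnT genes (Slc30a2, Slc30a3, Slc30a8 and Slc30a10) and 4 ZIP genes (Slc39a2, Slc39a4, Slc39a5 and Slc39a12). Slc30a8, the zinc transporter of insulin granules, was listed at 0 in all 6 libraries. The lowest mean among the tested members was 2.51 FPKM and the highest among these 10 was 0.0997 FPKM (Slc39a2), so none lay close to the minimum.

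Atp7b, the copper pump best known from liver and mutated in Wilson disease, differed between groups at this low level. It was at 0.034, 0.029 and 0.011 FPKM in RCE replicates 1, 2 and 3, and at 0.085, 0.099 and 0.068 FPKM in control replicates 1, 2 and 3. The groups did not overlap, and the ratio of the means, RCE over control, was 0.294. On the longest annotated transcript these values correspond to 10.1, 11.1 and 4.02 fragments in RCE replicates 1, 2 and 3, and to 30.0, 31.9 and 21.9 fragments in control replicates 1, 2 and 3. In limma with no filter on low values it was called lower (change -0.08 on the log2(FPKM + 1) scale, SE 0.01, adjusted p = 0.0163), where 5.24% of 17334 genes were called lower, and none of the other low members was called.

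Genes that work beside the members were read from 4 lists. Of 14 genes for copper chaperones, metalloreductases and mitochondrial copper, 13 were tested and 0 were called higher or lower in limma (1 higher at an unadjusted p under 0.05, where 28.5% of all tested genes were), with a median change of 0.03. With the block 4 of the 13 were higher, Steap1, Sco1, Sod1 and Cox19, against 46.6% of all tested genes. Of 10 copper enzymes that receive their metal in the secretory pathway, 7 were tested and 1 was called lower, with a median change of 0.04. Of all tested genes 6.77% were called lower and 17.6% higher. The block gave 2 higher, Lox (adjusted p = 0.00476) and Loxl4 (0.0128), and 2 lower, Pam (0.00454) and Sod3, where 46.6% of all tested genes were higher and 15.9% lower. The gene called in both fits was Sod3, the extracellular superoxide dismutase, at 7.11, 5.58 and 5.17 FPKM in RCE replicates 1, 2 and 3 and at 9.73, 8.33 and 7.92 FPKM in control replicates 1, 2 and 3. The groups did not overlap (change -0.48, SE 0.12, adjusted p = 0.0314), and the call ended when any single library other than RCE replicate 1 was left out (adjusted p of 0.0637 to 0.111). The list for zinc sensing, channels and chaperones also held other genes, Enpp1 among them. Of its 10 symbols 9 were found in the data and 5 were tested. Enpp1, a zinc-dependent ectoenzyme that makes pyrophosphate, was the 1 called, and was lower (change -0.27, adjusted p = 0.0394). With the block Cbwd1, a zinc chaperone gene, was also called, and was higher (adjusted p = 0.00105). The shares of all tested genes given for the copper enzymes are the background of this list too. The call of Enpp1 without the block ended when any 1 library except RCE replicate 1 was left out (adjusted p of 0.0537 to 0.117).

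Of 7 genes other than members that have been described as MTF1 targets in mouse, 4 were lower and 1 was higher, with a median change of -0.17, where 6.77% of all tested genes were lower and 17.6% higher. The list was chosen with earlier results of these data known and most of its genes answer to other regulators too, Ndrg1 to hypoxia and Gclc to NRF2 among them. Ndrg1, a hypoxia and stress response gene, was at 26.8, 26.5 and 27.2 FPKM in RCE replicates 1, 2 and 3 and at 66.9, 69.0 and 71.9 FPKM in control replicates 1, 2 and 3 (change -1.34, adjusted p = 3.82e-05). Gclc, the catalytic subunit of the first enzyme of glutathione synthesis, was at 30.9, 28.0 and 28.6 FPKM in RCE replicates 1, 2 and 3 and at 42.3, 39.0 and 39.6 FPKM in control replicates 1, 2 and 3 (change -0.45, adjusted p = 0.00364). In both genes the groups lay far apart compared with the spread within them. Pgf, a VEGF family growth factor, changed by -0.31 (adjusted p = 0.00987) and the selenoprotein Selenow by -0.17 (adjusted p = 0.0454). The call of Selenow ended when any single library other than RCE replicate 1 was left out (adjusted p of 0.102 to 0.177). The gene called higher was Slc40a1 (change 0.97, adjusted p = 0.00810), while Csrp1 and Selenoh were not called (changes -0.03 and 0.06, adjusted p = 0.628 and 0.796).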

How the data were processed

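Messenger RNA of 6 libraries, 3 RCE and 3 control, was measured. The deposited table gives FPKM per gene and library, the unit being taken from the submitters' processing notes, which list Cuffdiff 2.2.1, Cufflinks, STAR 2.5.4 and the build mm10 with no role for each, and from the values. The kit was stranded, per the labels' protocols. The annotation, filters and strand setting of the counting are not given in the sources used here. All 21853 genes were found in GENCODE M21, used for coordinates, lengths and overlaps.

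RCE was compared with control on the log2(FPKM + 1) scale by limma 3.58.1 in R 4.3.3, fitted with an intensity trend to the 10870 genes averaging 1 FPKM or more. Tests were 2-sided with Benjamini-Hochberg adjustment over all tested genes, at a threshold of 0.05. The code was tested on simulated data. Alternatives were pseudocounts of 0.1 and 0.5, no filter, a minimum mean of 5 FPKM, median-of-ratios scaling, no trend, a replicate block, each library left out and, added after seeing the data, both replicate 1 libraries left out.

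Depth was read from genes with 1 transcript, whose FPKM times length and depth must be whole: 95.1 to 97.2% of 661 to 707 values between 0.02 and 0.5 FPKM per library came out whole within 0.1 of a fragment. It covers counting error only. Every pair of libraries within a group differed by more than counting error (chi-square per degree of freedom of 2.87 to 29.6). Deviations from group means correlated at 0.92, 0.62 and 0.68 for pairs numbered 1, 2 and 3. The block treats the libraries as paired by number, although the labels do not say what a number stands for. Replicates 2 and 3 correlated more highly across numbers: 0.72 for RCE replicate 2 with control replicate 3, and 0.77 for RCE replicate 3 with control replicate 2. Deviations within a group cancel out, so a replicate 1 set apart in both groups by itself gives replicates 2 and 3 positive correlations. The check thus sets replicate 1 apart in both groups and does not bear out the numbering of replicates 2 and 3.

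The members and lists were chosen with earlier results of these data known. The text gives every library's value for members past the threshold, Mt1, Mt2, Slc39a8, Slc39a14 and the 3 most abundant members by rule, and others were added after their values were seen. Of the lists, genes past the threshold are named.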

Additional observations from a re-analysis of the deposited data

How the results depend on the processing

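Counts of genes called higher and lower were 867 and 485 with a minimum mean of 5 FPKM, 913 higher and 1082 lower with median-of-ratios scaling, 5060 and 1730 with the replicate block, and 4364 and 1480 with both replicate 1 libraries left out, against 1910 and 736 as reported. Leaving out single libraries gave 685 to 2040 higher and 394 to 734 lower. The shares of all tested genes are given below in brackets, higher first. Among members, 0 of 22 were higher and 1 lower as reported (17.6% and 6.77%), and 0 and 2 of 31 with no filter (11.3% and 5.24%). With median-of-ratios scaling the counts were 0 and 2 of 22 (8.4% and 9.95%). With the replicate block they were 4 and 9 (46.6% and 15.9%), and with both replicate 1 libraries left out 3 and 6 (40.1% and 13.6%). Leaving out single libraries gave 0 higher in each (6.3 to 18.8%) and 0 to 1 lower (3.62 to 6.75%). The 4 lists of related genes had 13, 7, 5 and 7 tested genes. Of these, 1 was higher and 6 lower as reported (17.6% and 6.77%), and 0 and 3 with a minimum mean of 5 FPKM (11.1% and 6.21%). With the block 8 were higher and 7 lower (46.6% and 15.9%). With both replicate 1 libraries left out 7 were higher and 7 lower (40.1% and 13.6%). Single libraries left out gave 1 to 2 higher and 3 to 6 lower. With the block 12 members gained a call, each named with its p in the report, and none lost one. Signs turned only for members that were not called. With median-of-ratios scaling the changes were -0.031 for Slc30a5, -0.015 for Slc30a7, -0.072 for Slc39a1, -0.039 for Slc39a7 and -0.038 for Slc39a8. With both replicate 1 libraries left out they were 0.012 for Mtf1 and 0.0017 for Slc31a1. With single libraries left out the changes ran from -0.030 to 0.021 for Mtf1, from -0.089 to 0.045 for Slc31a1, from -0.024 to 0.055 for Slc39a1 and from -0.013 to 0.10 for Slc39a8. The cause was not tested. The calls of Enpp1 and Selenow also ended with no filter (adjusted p = 0.0642 and 0.0648), and that of Selenow with a minimum mean of 5 FPKM (0.0523). Below about 0.1 FPKM few fragments lie behind a value, which limits what can be said of the low members.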

Other observations

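Replicate 1 ranked first or last of its group in both RCE and control for most tested members, in some by a margin as small as that of Mtf1 in RCE (4.561 against 4.548 FPKM in replicate 2). It was the highest library of its group in both RCE and control for 7 of 22 members (31.8%): Mt1, Mt2, Mtf1, Slc30a7, Slc39a6, Slc39a8 and Slc39a13. It was the lowest in both groups for 13 of 22 (59.1%), among them Slc30a1, which thus went the other way from Mt1 and Mt2. Over all 10870 tested genes replicate 1 was highest in both groups for 32.6% and lowest in both for 42.4%. The level of Mt1 relative to Mt2 moved with it: the ratio of Mt1 to Mt2 was 0.964, 0.716 and 0.703 in RCE replicates 1, 2 and 3, and 0.888, 0.718 and 0.634 in control replicates 1, 2 and 3. The ratios of the groups overlapped.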
